A study of Rattus norvegicus with 9 samples.

Results

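Dexmedetomidine pretreatment was compared with untreated ischemia-reperfusion in rat cerebral cortex, using 6 of the 9 RNA-seq libraries of the series: 3 from the I/R + DEX group and 3 from the I/R group. All transcripts of the deposited count table entered the comparison, and 25860 of 44059 had enough counts to be tested. Both groups were male Sprague-Dawley rats of 7 to 8 weeks that underwent transient middle cerebral artery occlusion (tMCAO), in which a filament closed the artery for 2 h and was then withdrawn. The I/R + DEX rats received 50 μg/kg dexmedetomidine intraperitoneally 30 min before the occlusion, and the I/R rats received the same volume of saline. This dosing is that of the study's methods, while its abstract also names administration after reperfusion. Cortex at the infarct site was taken 24 h after tMCAO. A further 3 libraries came from Sham rats, which were given saline and had the vessels exposed without a filament, and they serve here only as a reference level. Each library came from 1 rat, per the study's methods. Rats that showed no neurological deficit, died within the first day or had a subarachnoid hemorrhage were left out by the study, so the groups hold rats that passed this selection, and no infarct size of the sequenced rats was used here.

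Dexmedetomidine is a sedative that activates the α2 adrenergic receptor, a receptor that lowers noradrenaline release from nerve endings. In the cortex, occlusion of the middle cerebral artery stops the blood supply of the territory behind it, and reperfusion brings oxygen and blood cells back, with an inflammatory response, loss of neurons and activation of glia. Long non-coding RNA (lncRNA) are long transcripts without a coding frame, many of them expressed at low level and in few cell types. The table held 2 classes of transcript. The first were 40808 transcripts with rat Ensembl identifiers, called annotated here, and the second were 3251 transcripts with MSTRG identifiers, which were assembled from the reads and predicted to be lncRNA and which lay at 2408 loci. The annotated class is not protein-coding RNA alone, since the study lists some Ensembl identifiers as lncRNA. After the filter on low counts, 23027 annotated transcripts and 2833 predicted lncRNA were tested.

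The 6 libraries held 31234956 to 36039743 counts each, summed over all transcripts. Identifiers could not be paired with gene symbols, since 0 of 40808 annotated identifiers matched the gene table used here. For this reason transcripts are given by identifier, no pathway or cell type list could be applied, and the cortex label was not checked against marker genes. In bulk tissue, fewer cells of a type and less RNA per cell cannot be told apart. Of the 6 libraries, I/R + DEX replicate 3 stood apart in the values that follow, and the counts of calls are therefore given with and without it.

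Differences between pretreated and I/R rats were small for most single transcripts. The median size of the log2 fold change, whatever its sign, was 0.22 for annotated transcripts and 0.33 for predicted lncRNA, and the median signed value over all tested transcripts was 0.01. At the cutoff the study used, an unadjusted p under 0.05 and a change of more than 0.8 up or down on the log2 scale (a fold of 1.74), 610 of 25860 transcripts passed in edgeR's quasi-likelihood test, which is 2.36%. Of these, 301 were higher and 309 lower in I/R + DEX than in I/R. By class, 531 annotated transcripts passed, 270 of them higher, and 79 predicted lncRNA passed, 31 of them higher, which is 2.31% and 2.79% of the transcripts tested in each class. Without the requirement on fold change, 997 transcripts (3.86%) had an unadjusted p under 0.05, and 0.05 of 25860 is 1293.

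After Benjamini-Hochberg adjustment over all 25860 transcripts, 0 had a value under 0.05 in edgeR's quasi-likelihood test (0%), and the smallest adjusted p was 0.359. DESeq2 on the same counts called 85 transcripts at that adjusted threshold, and 2 were called by limma-voom weighted for library quality, against the 997 at an unadjusted p under 0.05 in edgeR. Of the 85 DESeq2 calls, 45 were higher, 40 were lower, 19 were predicted lncRNA, and 73 also passed the study's cutoff in edgeR. In 13 of the 85, every library of one group held 0 counts. The 2 limma-voom calls, described after their values were seen, were both annotated transcripts of this kind. One had 541, 408 and 327 counts in the I/R libraries and 0 in all I/R + DEX libraries, at least 132-fold lower when 3 counts per library are taken as the limit of detection. It was also at 0 in 2 Sham libraries and at 440 counts in Sham replicate 3, so its presence varied among Sham rats as well. The other had 0 counts in all I/R libraries and 93, 64 and 116 in I/R + DEX, at least 33.8-fold higher, with 126, 178 and 37 in Sham.

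The split into higher and lower transcripts depended on the scaling of the libraries. With TMM factors 49.3% of the 610 transcripts were higher, whereas with total counts alone 200 were higher and 491 lower, or 28.9% higher, and the median log2 fold change of all transcripts moved from 0.01 to -0.10. Values in CPM (read counts scaled to a common library total, here with TMM factors) of all 3 I/R + DEX libraries lay outside the range of the 3 I/R libraries for 2333 transcripts, or 9.02%, 1053 of them higher and 1280 lower. If no transcript differed, 3 against 3 libraries would separate fully with a probability of 0.1. The share of 9.02% is not above that level. Among the 610 transcripts at the cutoff, the groups did not overlap for 480, but these 610 were chosen by p on the same values.

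**Figure D1:**
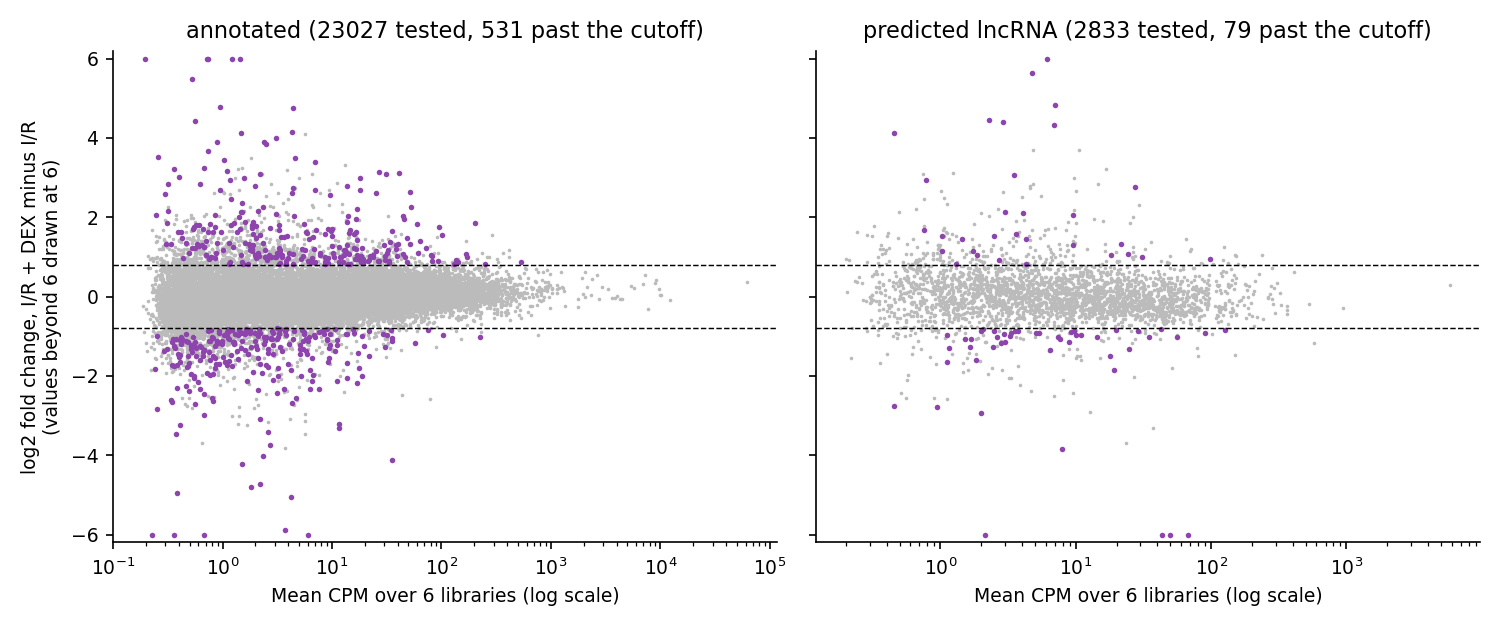
Mean CPM over the 6 libraries (log scale, x axis) against the log2 fold change of I/R + DEX minus I/R (y axis) for annotated transcripts (left) and predicted lncRNA (right); purple points passed the study's cutoff, dashed lines mark 0.8 and -0.8, and values beyond 6 in either direction are drawn at 6. The cloud narrows towards abundant transcripts in the annotated class, and 531 annotated transcripts and 79 predicted lncRNA are purple.

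Both the size of the estimated differences and their precision varied with abundance. For annotated transcripts under 1 CPM, the median size of the log2 fold change was 0.41 and the median half-width of its 95% interval was 1.34, so the interval of a typical rare transcript reached 2.53-fold to either side of its estimate. From 1 to 4 CPM these values were 0.32 and 1.01, from 4 to 16 CPM 0.21 and 0.69, from 16 to 64 CPM 0.15 and 0.50, and over 64 CPM 0.16 and 0.46. The half-width was thus about 3 times the median size in each of these bands. Predicted lncRNA had both larger estimates and wider intervals at the same abundance. Their median size fell only from 0.48 under 1 CPM to 0.29 at 16 to 64 CPM, and the half-width from 1.59 to 0.78. Estimates tend to be larger where their standard error is larger, also when nothing differs. These sizes are therefore not read as larger effects of the drug. Over 64 CPM, where annotated transcripts were measured best, predicted lncRNA had a half-width of 0.92 and a median size of 0.30.

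Most transcripts beyond a log2 fold change of 0.8 did not pass the test, since 2511 transcripts (9.71%) were beyond it and 1901 of these had an unadjusted p above the threshold. The share beyond 0.8 was 21.5% for annotated transcripts under 1 CPM and 1.80% over 64 CPM. At the other end, the whole 95% interval lay within 0.8 in either direction for 8719 transcripts (33.7%). Each interval is for a single transcript, and these transcripts were picked by their own intervals. The confidence level therefore does not hold for them as a set, and a change as large as the study's cutoff is not excluded for all of them. They made up 36.1% of annotated transcripts and 14.4% of predicted lncRNA. By band, the share of annotated transcripts bounded in this way was 0.0273% under 1 CPM, 5.97% at 1 to 4 CPM, 37.7% at 4 to 16 CPM, 62.6% at 16 to 64 CPM and 65% over 64 CPM. For predicted lncRNA it was 0% under 1 CPM and at most 28%, at 16 to 64 CPM.

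To pass the adjustment alone in edgeR, with no other transcript called, a transcript needed an unadjusted p of 1.93e-06, and the smallest observed was 1.39e-05. With the median standard error of its band, this corresponds to a log2 fold change of 3.14 for an annotated transcript over 64 CPM and of 4.68 at 4 to 16 CPM. For a predicted lncRNA at 16 to 64 CPM it corresponds to 5.31. With 3 rats in each group, a count of 0 after adjustment therefore leaves smaller changes of single transcripts undecided.

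**Figure D2:**
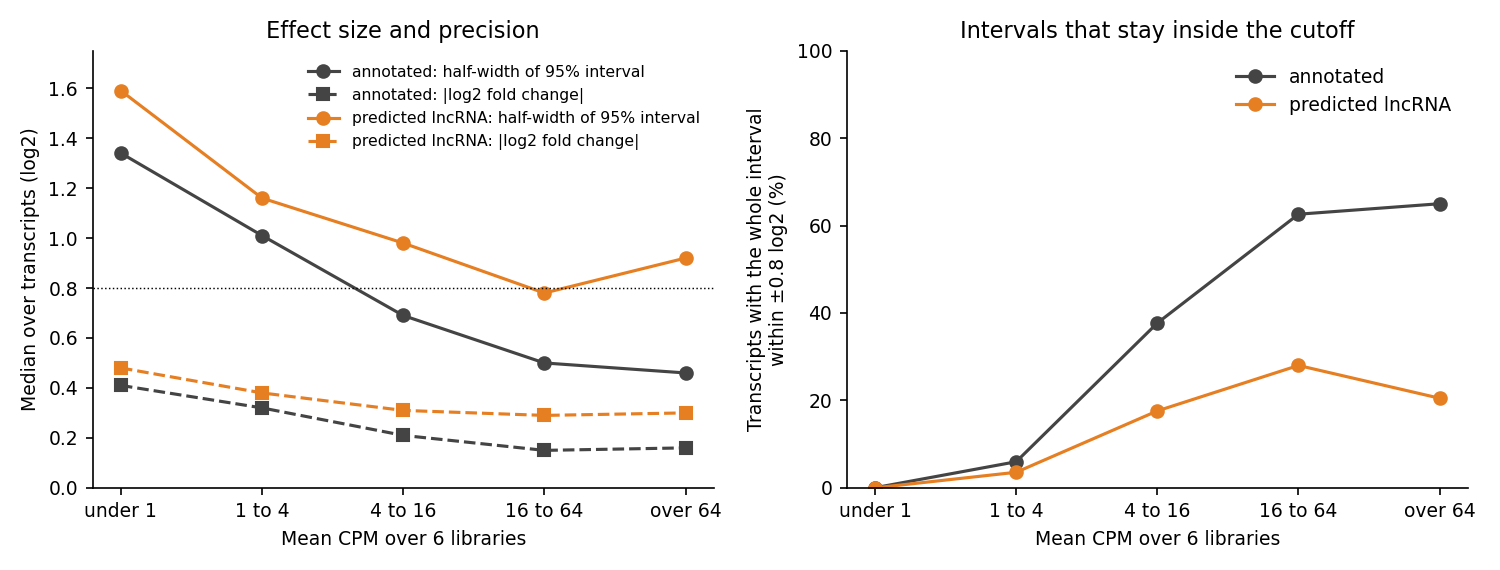
Left, the median half-width of the 95% interval (circles, solid lines) and the median size of the log2 fold change (squares, dashed lines) by band of mean CPM for annotated transcripts (grey) and predicted lncRNA (orange), with a dotted line at 0.8; right, the percent of transcripts whose whole interval lay within 0.8 in either direction. The median size stays below the half-width in every band, and the predicted lncRNA end at 20.5% on the right against 65% for annotated transcripts.

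Abundant transcripts of the 2 classes leaned in opposite directions. Among predicted lncRNA at 16 to 64 CPM, 74 of 672 (11%) had an unadjusted p under 0.05, of which 65 were lower and 9 higher in I/R + DEX. Over 64 CPM, 23 of 219 (10.5%) did so, 22 of them lower. Annotated transcripts of the same abundance had 199 of 6258 (3.18%) and 79 of 2998 (2.64%) at that threshold, with 150 and 63 higher against 49 and 16 lower. The count of non-overlapping groups gave the same picture for predicted lncRNA at 16 to 64 CPM, where 107 (15.9%) did not overlap, 97 of them lower, beside 7.70% of annotated transcripts. None of these transcripts passed after adjustment in edgeR. DESeq2 called 7 of 672 predicted lncRNA at 16 to 64 CPM, 6 of them lower, and 2 of 219 over 64 CPM, both lower. In these bands it called 17 of 6258 and 2 of 2998 annotated transcripts, a smaller share, and in all it called 85 of 25860 transcripts. No test was made of the difference between the classes.

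The lean of the annotated class changed direction with the scaling, and that of the abundant predicted lncRNA kept its direction. Total counts in place of TMM moved both classes downwards. The median log2 fold change went from 0.09 to -0.01 for annotated transcripts over 64 CPM. For predicted lncRNA above 16 CPM it went from -0.11 to -0.19. Over all abundances, 458 annotated transcripts were higher and 365 lower at an unadjusted p under 0.05 with TMM, but 217 higher and 685 lower with total counts. Predicted lncRNA above 16 CPM had 10 higher and 87 lower with TMM and 8 and 134 with total counts. Without I/R + DEX replicate 3 they had 68 higher and 151 lower, and their median log2 fold change moved from -0.11 to 0.03. It was also 0 without I/R replicate 3. The median of these lncRNA was thus below 0 only with both of these libraries in the fit.

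The share of all counts that fell on predicted lncRNA was 7.25%, 5.90% and 7.72% in the I/R libraries and 7.53%, 6.89% and 4.91% in the I/R + DEX libraries. The groups overlapped, and I/R + DEX replicate 3 had the lowest share of the 6, whereas replicate 1 of the same group had nearly the highest. The mean was 6.96% ± 0.946 (SD, n = 3) in I/R and 6.44% ± 1.37 (SD, n = 3) in I/R + DEX (p = 0.6, 2-sided exact permutation test, adjusted p = 0.8 over 5 library measures). With 3 against 3 libraries this test cannot go below 0.1. The difference of -0.514 percentage points became 0.253 without I/R + DEX replicate 3.

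The composition of the libraries varied more within the pretreated group than between the groups. The 100 most abundant transcripts took 22.8%, 30.9% and 23.6% of counts in I/R and 18.7%, 26.2% and 36.2% in I/R + DEX, so that both the lowest and the highest of the 6 values were in pretreated rats. The 10 most abundant took 11%, 17.6% and 11.9% in I/R and 7.67%, 13.7% and 22.2% in I/R + DEX. The exact permutation p was 0.8 for both measures. The number of transcripts with at least 10 counts after thinning to one total was 25905, 25307 and 25520 in I/R and 25458, 25055 and 24792 in I/R + DEX (exact permutation p = 0.2, adjusted p = 0.8). The quality weights that limma-voom gave the libraries ran from 2.67 for I/R replicate 1 to 0.351 for I/R + DEX replicate 3.

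**Figure D3:**
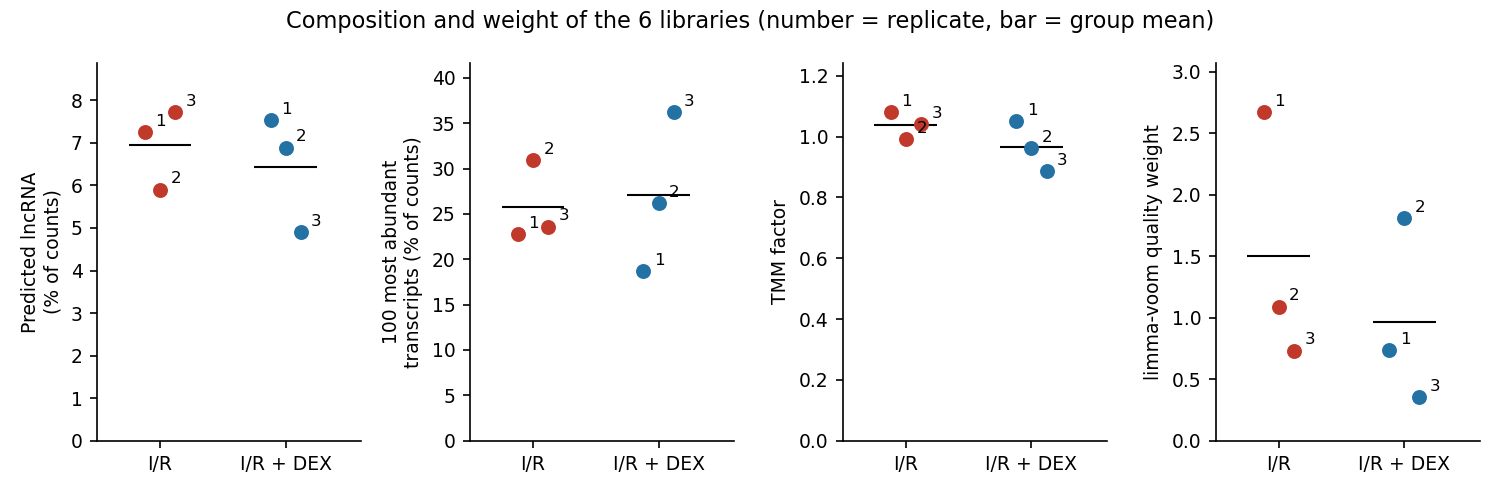
Values of each of the 6 libraries, by group (red, I/R; blue, I/R + DEX): the percent of counts on predicted lncRNA, the percent on the 100 most abundant transcripts, the TMM factor and the limma-voom quality weight; numbers give the replicate and bars the group mean. The groups overlap in every panel, and I/R + DEX replicate 3 is lowest for lncRNA share (4.91%), TMM factor (0.887) and weight (0.351) and highest for the 100 most abundant transcripts (36.2%).

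Rats given dexmedetomidine differed more from each other than untreated rats did. The biological coefficient of variation, which is the spread between rats beyond counting noise estimated over all transcripts, was 48.3% in I/R + DEX and 38.3% in I/R. Among annotated transcripts it was 43.9% and 33.9%, and among predicted lncRNA 72.7% and 63.2%. The SD of log2 CPM between the 3 rats was larger in I/R + DEX for 66.5% of transcripts, with medians of 0.40 and 0.29. For 47.8% of transcripts the range within I/R + DEX exceeded 0.8, the size of the study's cutoff, and for 34.2% the range within I/R did, whereas the means of the groups differed by that much for 9.71%. Without I/R + DEX replicate 3 the coefficient of the group was 39.1%, close to that of I/R, and without replicates 1 or 2 it was 49.7% and 54.2%. No test of the difference in spread was made.

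The excess of spread in the pretreated group was seen at every abundance and widened, as a ratio, with it. Annotated transcripts under 1 CPM had a median SD of 0.61 in I/R + DEX and 0.51 in I/R, and the SD was larger in I/R + DEX for 59.2% of them. Over 64 CPM the medians were 0.27 and 0.18, and the share was 74%. Predicted lncRNA over 64 CPM had medians of 0.67 and 0.38 and a share of 80.8%. Thus abundant transcripts showed the larger spread of pretreated rats more often than rare ones.

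Distances between whole libraries did not separate the groups. The median size of the log2 difference between a pair of libraries over all tested transcripts was 0.26 to 0.40 within I/R, 0.33 to 0.57 within I/R + DEX and 0.26 to 0.54 between the groups. The pair of pretreated replicates 1 and 3 was the most distant of all, at 0.57. Replicate 2 of I/R + DEX was nearest to I/R replicate 3, at 0.26, and I/R + DEX replicate 3 was nearest to I/R replicate 2, at 0.30.

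The I/R + DEX libraries also differed in how far they stood from Sham. Against Sham, 5773 transcripts were raised and 5252 lowered in I/R after adjustment, in a separate edgeR fit of those 6 libraries. The median log2 difference of the raised transcripts from the Sham mean was 1.33, 1.42 and 1.03 in the I/R libraries and 0.77, 0.93 and 1.31 in the I/R + DEX libraries. The lowered transcripts stood at -1.16, -1.33 and -0.93 in I/R and at -0.62, -0.84 and -1.19 in I/R + DEX. Pretreated replicates 1 and 2 thus lay nearer to Sham than every I/R library in both sets, and replicate 3 lay within the I/R range. The I/R libraries helped to choose these transcripts and share the Sham reference with I/R + DEX, so these are descriptions and no test was made.

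Predicted lncRNA spread further along the same axis. The 1042 that were lowered in I/R stood at -1.68, -2.17 and -1.37 in the I/R libraries and at -1.11, -1.36 and -2.29 in the I/R + DEX libraries, the last being the lowest of the 6. The 362 that were raised stood at 1.43, 1.6 and 1.17 in I/R and at 0.64, 0.83 and 1.4 in I/R + DEX. I/R + DEX replicate 3 was therefore within the I/R range for raised predicted lncRNA and beyond it for lowered ones. Its annotated transcripts stood at 1.3 (raised) and -1.04 (lowered). Both lay within the I/R ranges of 1.02 to 1.41 and -1.2 to -0.85.

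**Figure D4:**
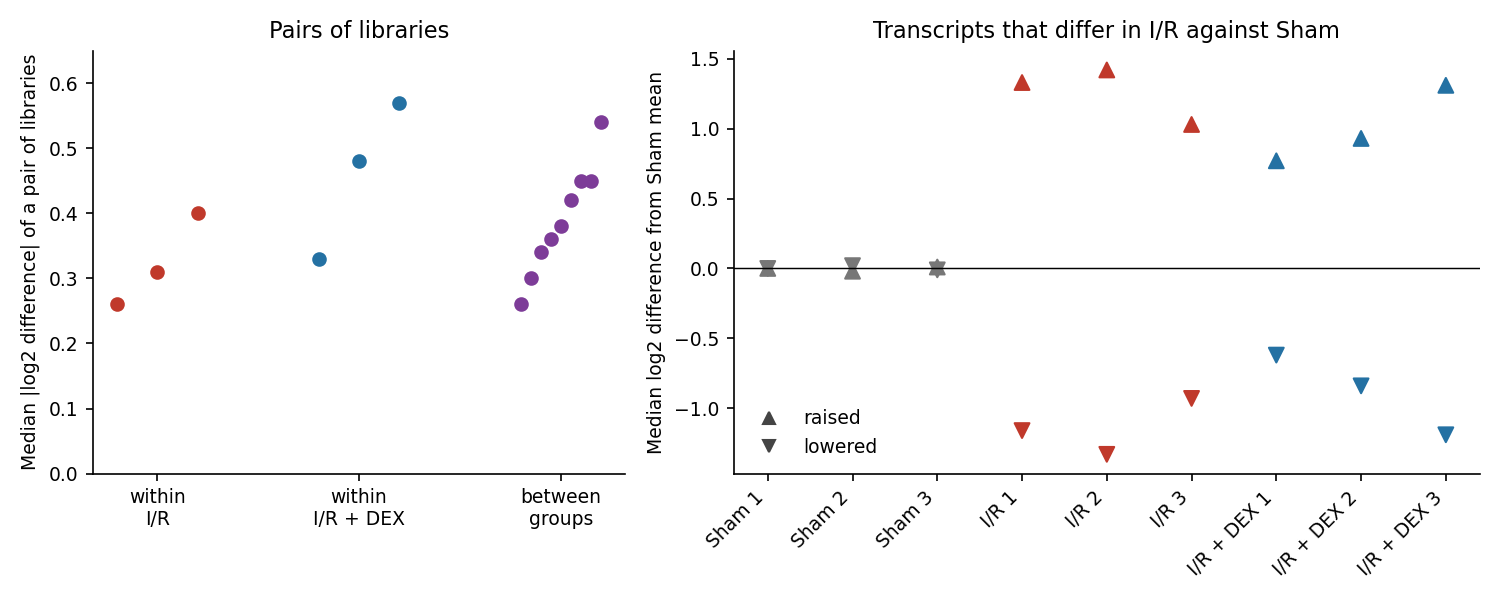
Left, the median size of the log2 difference between each pair of libraries (3 pairs within I/R, 3 within I/R + DEX and 9 between the groups); right, the median log2 difference from the Sham mean in each of the 9 libraries for the 5773 transcripts raised (upward triangles) and the 5252 lowered (downward triangles) in I/R against Sham. Between-group pairs cover 0.26 to 0.54, within the span of the within-group pairs, and I/R + DEX replicate 3 sits among the I/R libraries at 1.31 and -1.19.

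Which transcripts passed the cutoff depended on single rats. When each library was left out in turn, 26553 to 26682 transcripts were tested. Between 463 transcripts (1.74%, without I/R replicate 1) and 1948 (7.3%, without I/R + DEX replicate 3) passed, beside 2.36% with all 6 libraries. An adjusted p under 0.05 was found for 0 transcripts in any of the 6 edgeR fits, where the smallest adjusted p was 0.121. Of the 1948 transcripts, 855 were higher and 1093 lower, and 450 of them were among the 610 found with all libraries, so 1498 appeared only without that rat. Leaving out I/R replicate 3 gave 934 transcripts (3.51%), of which 374 were shared with the 610. A set of 158 of the 25860 transcripts passed with all 6 libraries and in every one of the 6 leave-one-out fits. Of this set, 83 were higher and 75 lower, and 26 were predicted lncRNA. These 158 were selected on the values themselves and are given as a description.

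Adjusted p values of named transcripts and loci are those of edgeR. With DESeq2, 9 of the 18 named transcripts that could be fitted passed after adjustment: MSTRG.288.3 and the 8 chosen for the smallest p in their class and direction. Of 12 named loci, 4 passed with DESeq2, MSTRG.1317, MSTRG.3146, MSTRG.1548 and MSTRG.5618, and no other alternative gave a pass for any of these transcripts or loci.

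For annotated transcripts, the 2 with the smallest p in each direction among those with non-overlapping groups and at least 10 counts in every library are given. ENSRNOT00000076511 stood at 11.8, 12.3 and 12.2 CPM in I/R and at 26.9, 19.9 and 22.7 CPM in I/R + DEX. The I/R values were close together and every pretreated rat was above them, with a log2 fold change of 0.95 ± 0.17 (SE) but an adjusted p of 0.987 (edgeR's quasi-likelihood test). In Sham it was at 19.2, 18.7 and 28.2 CPM, which is also above all I/R rats. ENSRNOT00000076341 stood at 0.728, 0.998 and 0.751 CPM in I/R and at 3.78, 5.71 and 2.27 CPM in I/R + DEX, with a log2 fold change of 2.25 ± 0.42 (SE), and an adjusted p of 0.987. All pretreated rats were above all I/R rats, at 25 to 194 counts in a library.

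ENSRNOT00000088313 was lower after pretreatment, with 29.2, 14.8 and 23.5 CPM in I/R against 6.58, 4.71 and 4.79 CPM in I/R + DEX. The log2 fold change was -2.06 ± 0.31 (SE) and the adjusted p 0.987. The 3 pretreated rats were close to each other, but Sham rats stood at 24.4, 1.55 and 8.21 CPM and so spanned nearly the whole range seen after ischemia. ENSRNOT00000064385 stood at 3.4, 5.62 and 6.82 CPM in I/R and at 1.11, 1.21 and 1.6 CPM in I/R + DEX, a log2 fold change of -2.01 ± 0.36 (SE) with an adjusted p of 0.987.

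Many predicted lncRNA share a locus with others, so that reads of one locus could be divided between them differently in each rat, and the deposited files do not state how this was done. Of the 2408 loci, 373 held several predicted lncRNA, 1216 in all. Among those with at least 100 counts in one I/R library, 155 of 725 (21.4%) were at 0 in another library of the same group, and in I/R + DEX 142 of 715 (19.9%) were. At loci with one predicted lncRNA this was seen for 4 of 1430 (0.280%) and 8 of 1450 (0.552%), and among annotated transcripts for 144 of 17075 (0.843%) and 181 of 16952 (1.07%). As a share, presence and absence among rats of one group was thus most frequent at loci with several predicted lncRNA, in treated and untreated rats alike. By number it was similar among annotated transcripts, which could not be grouped by gene.

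Summing the counts of each locus removed most of this spread. Predicted lncRNA at loci with several members had a median SD between rats of 0.99 on the log2 scale, whereas the sums of those loci had 0.49, the same as loci with one member and not far above the 0.37 of annotated transcripts. With the sums in place of the transcripts, 595 of 25296 features passed the cutoff (2.35%), among them 47 of 2269 loci, 11 higher and 36 lower. In edgeR's quasi-likelihood test 0 loci passed after adjustment, the smallest adjusted p being 0.979. At an unadjusted p under 0.05 there were 153 loci (6.74%), 16 higher and 137 lower. Among predicted lncRNA as single transcripts the share was 6.14%, with 38 higher and 136 lower, and among all transcripts it was 3.86%. DESeq2 called 11 of the 2269 loci after adjustment, 2 higher and 9 lower, and limma-voom called 0.

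At the 2 predicted lncRNA with the smallest p among those that were higher, the locus did not show the change of the transcript. MSTRG.9266.1 stood at 0.674, 1.03 and 0.300 CPM in I/R and at 12.3, 20 and 7.70 CPM in I/R + DEX, a log2 fold change of 4.32 ± 0.59 (SE) with an adjusted p of 0.987. The sum of its locus, however, was 25.5, 18.4 and 26.4 CPM in I/R and 35.5, 19.8 and 7.74 CPM in I/R + DEX, so the groups overlapped and the log2 fold change was -0.16 ± 0.51 (SE, adjusted p = 0.99). The transcript took nearly none of the reads of its locus in untreated rats and nearly all of them in pretreated replicates 2 and 3. MSTRG.1128.16 stood at 1.08, 0.816 and 0.391 CPM in I/R and at 4.06, 6.26 and 8.72 CPM in I/R + DEX (log2 fold change 3.06 ± 0.49, SE), whereas its locus had a log2 fold change of 0.44 ± 0.28 (SE, adjusted p = 0.979).

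Of the 2 with the smallest p among those that were lower, one kept its change at the locus. MSTRG.1317.1 stood at 33.3, 37.1 and 38.2 CPM in I/R and at 9.57, 14.1 and 19.5 CPM in I/R + DEX, and the sum of its locus at 32.9, 37.2 and 37.8 against 9.57, 14.0 and 19.6 CPM. All 3 pretreated rats were below all untreated rats, between them and the Sham level of 8.54 to 9.30 CPM, with a log2 fold change of the locus of -1.32 ± 0.27 (SE, adjusted p = 0.979). MSTRG.6454.2 stood at 127, 132 and 100 CPM in I/R and at 50, 71.4 and 65.5 CPM in I/R + DEX, but the sum of its locus in pretreated replicate 3 was 141 CPM, within the I/R range of 99.3 to 170 CPM. The locus then had a log2 fold change of -0.59 ± 0.41 (SE, adjusted p = 0.979).

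Selected by the same rule, the loci with the smallest p were MSTRG.1317 and MSTRG.3146 among those that were lower and MSTRG.1548 and MSTRG.5618 among those that were higher. MSTRG.3146 stood at 21.8, 28.6 and 29.3 CPM in I/R and at 5.51, 9.74 and 12.9 CPM in I/R + DEX (log2 fold change -1.50 ± 0.33, SE), with 1.55 to 10.3 CPM in Sham. MSTRG.1548 stood at 1.24, 0.999 and 1.6 CPM in I/R and at 4.18, 5.22 and 2.63 CPM in I/R + DEX (log2 fold change 1.64 ± 0.37, SE). MSTRG.5618 was at 0, 0 and 4 counts in Sham, at 79, 47 and 37 counts in I/R and at 282, 284 and 89 counts in I/R + DEX, so it was highest in pretreated rats. Its log2 fold change was 2.11 ± 0.49 (SE, adjusted p = 0.979).

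**Figure D5:**
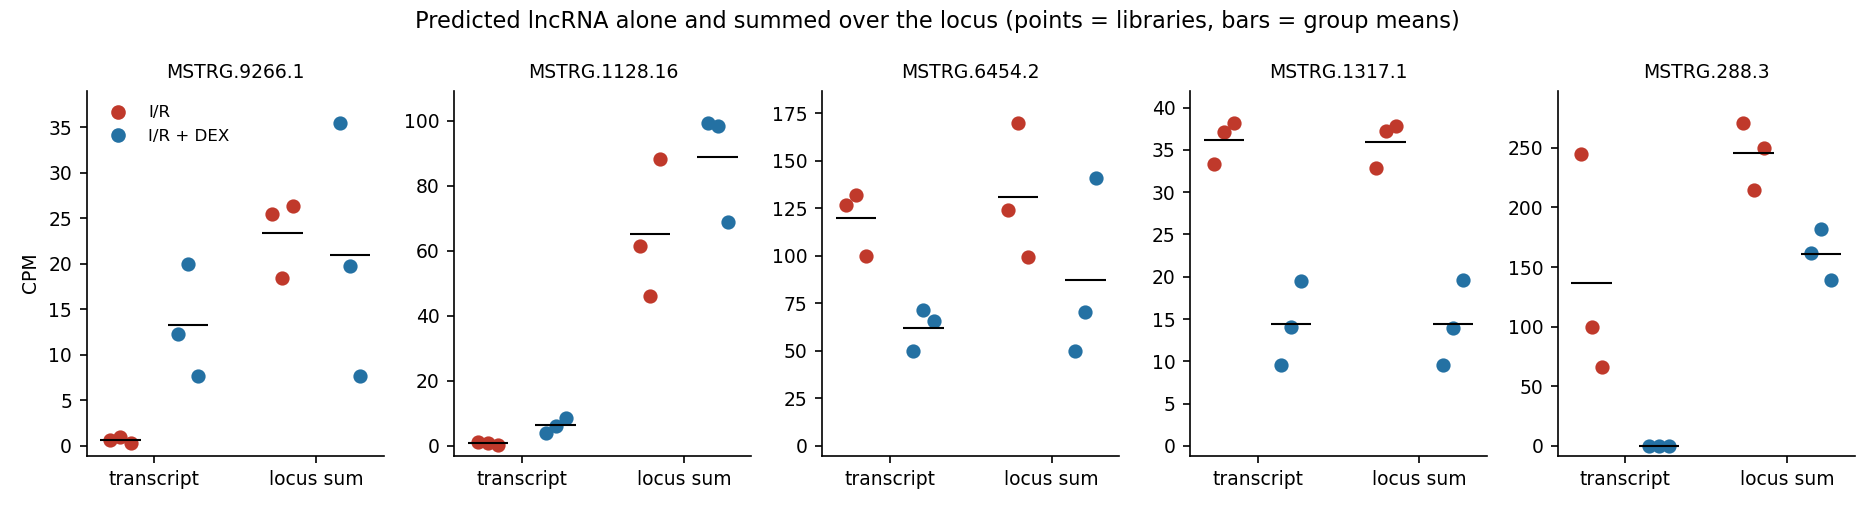
CPM of 5 predicted lncRNA, each as the transcript (left pair in a panel) and as the sum of its locus (right pair), in the 3 I/R libraries (red) and the 3 I/R + DEX libraries (blue), with bars at group means. The groups separate at both levels for MSTRG.1317.1 and MSTRG.288.3, whereas the locus sums of MSTRG.9266.1, MSTRG.1128.16 and MSTRG.6454.2 overlap.

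The study names 5 predicted lncRNA in its text and measured 2 of them by PCR, MSTRG.288.3 and MSTRG.16732.1. For both lncRNA it reports that the PCR, in other rats and not examined here, matched its sequencing. Their primers are shown since they fix which stretch of each locus the PCR read, 5′ to 3′ and as listed by the study, with 20 bases each. They were not placed on the genome here.
MSTRG.288.3 forward: cccacaggccaagggaattt
MSTRG.288.3 reverse: cccgtgaaccctcaacacat
MSTRG.16732.1 forward: caacaatgcccaccaaccag
MSTRG.16732.1 reverse: ccattactgccctccccaag

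MSTRG.288.3 was counted in I/R rats and in no other rat. It had 9067, 3291 and 2213 counts in the I/R libraries and 0 in every I/R + DEX and Sham library, where 3 counts would be 0.0866 to 0.101 CPM in I/R + DEX, and was at least 1473-fold lower after pretreatment against the mean of that limit, 0.093 CPM (adjusted p = 0.912 in edgeR, passed with DESeq2). A partner at the same locus, MSTRG.288.1, moved the other way, with 32.0, 91.8 and 132 CPM in I/R and 162, 184 and 138 CPM in I/R + DEX. The sum of the locus was 271, 215 and 250 CPM in I/R and 162, 182 and 139 CPM in I/R + DEX, with 122 to 146 CPM in Sham. The pretreated rats were thus all below the untreated ones at the locus, by a log2 fold change of -0.61 ± 0.17 (SE, adjusted p = 0.979), which is a much smaller difference than that of the transcript and lies inside the study's cutoff. MSTRG.288.2 was at 0, 763 and 1810 counts in I/R and at 0 in I/R + DEX, and was removed by the filter on low counts.

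MSTRG.16732.1 had 0 counts in the 3 I/R libraries and 121, 807 and 0 in I/R + DEX, against 1821, 826 and 485 in Sham. It did not pass the filter either, and pretreated replicate 3 was again like the untreated rats. The sum of its locus was 6.59, 4.12 and 15.3 CPM in I/R and 24.7, 23.6 and 3.75 CPM in I/R + DEX, with a log2 fold change of 1.00 ± 0.77 (SE, adjusted p = 0.979), and 58.7 to 68.0 CPM in Sham. Pretreated replicates 1 and 2 were above all untreated rats, and replicate 3 was below all of them.

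MSTRG.17966.6 was found in 2 of the 3 untreated rats, with 7852, 0 and 1843 counts in I/R and 0, 11 and 0 in I/R + DEX. Its locus is dominated by MSTRG.17966.4, one of the 2 most abundant predicted lncRNA, at 895, 1223 and 1074 CPM in I/R and 779, 972 and 833 CPM in I/R + DEX (log2 fold change -0.30 ± 0.19, SE). The locus as a whole was at 1152, 1250 and 1157 CPM in I/R and 779, 996 and 837 CPM in I/R + DEX, lower in 3 of 3 pretreated rats by a log2 fold change of -0.45 ± 0.17 (SE, adjusted p = 0.979).

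MSTRG.2024.4 was detected in a single library, I/R replicate 2, with 11399 counts. The sum over the 12 predicted lncRNA of its locus was 2291, 2737 and 1929 CPM in I/R and 789, 1518 and 2264 CPM in I/R + DEX, with 322 to 383 CPM in Sham. Pretreated replicate 1 was lowest and replicate 3 within the untreated range, and the log2 fold change was -0.61 ± 0.39 (SE, adjusted p = 0.979). Among predicted lncRNA that passed the filter with a mean of at least 10 CPM, those with the widest log2 range in each group were also at this locus: MSTRG.2024.2 had 28976, 8580 and 0 counts in I/R and 0, 14939 and 9811 in I/R + DEX, and MSTRG.2024.12 had 0, 20724 and 13830 in I/R + DEX with 21289 to 32499 in I/R.

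Among the 4 transcripts named as most abundant, 2 varied among rats as the composition of the libraries did. ENSRNOT00000050156 alone took 4.2%, 7.55% and 4.71% of counts in I/R and 2.60%, 5.63% and 11% in I/R + DEX. The lowest and the highest of these values were both in pretreated rats, and its log2 fold change of 0.37 ± 0.69 (SE, adjusted p = 0.99) became -0.37 without I/R + DEX replicate 3. MSTRG.18555.2, the most abundant predicted lncRNA, was ordered in the same way, at 3792, 7475 and 4678 CPM in I/R and 2358, 6299 and 10505 CPM in I/R + DEX, and its log2 fold change of 0.28 ± 0.57 (SE) became -0.30 without that library. The other two did not follow this order. ENSRNOT00000093096, the second most abundant annotated transcript, ranged from 10365 to 13853 CPM over the 6 libraries, with a log2 fold change of -0.09 ± 0.28 (SE).

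Presence and absence also set the widest ranges among annotated transcripts. ENSRNOT00000055615 had 467, 0 and 13193 counts in I/R and 1151, 1100 and 0 in I/R + DEX, while Sham rats were steady at 33.0 to 43.7 CPM. ENSRNOT00000005016 had 0, 0 and 3373 counts in I/R and 3793, 677 and 0 in I/R + DEX. In both transcripts a rat of each group had no counts. Their log2 fold changes were -2.59 ± 2.5 and 0.44 ± 2.71 (SE), with an error close to the effect in the former and larger than it in the latter.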

How the data were processed

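Raw read counts per transcript, deposited by the authors as one table of 9 libraries, were used as they stood. Per the labels, total RNA was extracted from cerebral cortex and made into libraries with a total RNA kit, and the submitters' processing notes name the build rn6, STAR 2.5.3a and StringTie 1.3.1. The study's methods name other software and a mouse build, so the mapping and the division of reads between overlapping transcripts, with or without strand, remain uncertain. Groups came from the sample titles, each rat being 1 replicate, and the labels give no batch.

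Counts were filtered with filterByExpr (minimum 10, total 15), scaled by TMM and tested with edgeR 4.0.16 (quasi-likelihood test, 6 libraries, no covariate) in R 4.3.3. P-values were adjusted by Benjamini-Hochberg, and fold changes are I/R + DEX over I/R. The standard error was the log2 fold change over the square root of F. DESeq2 1.42.0 and limma 3.58.1 (voom, quality weights) were alternatives, beside other scaling and filters, all 9 libraries in one fit, a replicate block, and each library left out. Library measures were compared by 2-sided exact permutation tests. Counting limits (3 counts) cover counting error only. Scripts were tested on simulated data. All pairs of libraries differed by more than sampling noise (chi-square per degree of freedom 47.3 to 330).

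The comparison, lists and rules were chosen with earlier results of these data known. Named transcripts were the 5 the study names, the 2 with the smallest p in each class and direction (at the cutoff, non-overlapping, at least 10 counts in each library), the 2 most abundant in each class, and in each group the widest range at a mean of at least 10 CPM. Lists by gene symbol were not used, since identifiers could not be matched.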

Additional observations from a re-analysis of the deposited data

How the results depend on the processing

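No alternative gave a call after adjustment in edgeR's quasi-likelihood test, while DESeq2 gave 85 and limma-voom 2. The count at the study's cutoff, 610 (2.36%), was 919 (2.51%) with no filter beyond a total above 0 and 2130 (8.24%) with limma-voom. When each library was left out, it was 463 to 1948 (1.74% to 7.3%). With the replicate block it was 383 (1.48%), with 0 after adjustment. It stayed within 1.5 times in the remaining alternatives. The labels do not state that replicate numbers pair the rats. Deviations of same-numbered libraries correlated at 0, -0.16 and -0.28, and those of other pairs at -0.2 to 0.3. Values so alike cannot decide whether rats were paired, and the count of 383 was not read as a weaker effect. The median half-width of annotated transcripts was 1.11 with no filter (0.76 with it) and 0.77 to 0.97 with a library left out. The coefficient of variation with at least 10 counts in every library was 28.2% (I/R) and 37.7% (I/R + DEX), and it was 34.8% to 43.6% and 39.1% to 54.2% with a library left out. The difference in lncRNA share ranged from -1.06 to 0.253 percentage points, the last without I/R + DEX replicate 3.

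Over 59 results and 722 alternative values, 680 were labeled the same, 14 moved and 15 reversed. A further 13 (9 named transcripts and 4 named loci) passed the adjusted threshold under DESeq2. For named transcripts and loci the label meant the same direction and side of the threshold, and for counts of calls within 1.5 times. For medians by class and band it meant a shift below the median standard error of a transcript. That rule is loose: annotated transcripts over 64 CPM had a standard error of 0.19 and a median size of 0.16. Their size of 0.25 without I/R + DEX replicate 3 was still labeled the same. Without I/R + DEX replicate 3, the log2 fold change was -0.37 for ENSRNOT00000050156, 0 for ENSRNOT00000093096, -0.30 for MSTRG.18555.2 and its locus (up to 0.67 without other libraries) and 0.24 for the locus MSTRG.9266 (down to -0.77). That of ENSRNOT00000055615 was 1.65 with limma-voom, 1.4 with the replicate block and ranged from -3.18 to 1.86 with a library left out, the last without I/R replicate 3. That of ENSRNOT00000005016 was -0.15 without I/R replicate 1 or 2 and -1.76 without I/R + DEX replicate 1, but 13.57 without I/R replicate 3. The same transcript had 7.88 with limma-voom and 7.28 with the replicate block. That of MSTRG.2024.2 was 0.75 with the replicate block, 1.00 without I/R replicate 1 and 0.17 without I/R + DEX replicate 1, and down to -1.03 with another left out. The cause was not tested.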
